A study of Mus musculus with 8 samples.

Results

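The CC chemokine ligands measured here were 10 genes of the 54146 in the deposited tables: Ccl2, Ccl3, Ccl4, Ccl5, Ccl7, Ccl11, Ccl17, Ccl19, Ccl20 and Ccl25. They were taken by gene symbol, and each was listed for all 8 libraries, also where its count was 0. The libraries were RNA-seq of primary astrocytes cultured from the cortices of newborn C57BL/6 mice. The cultures carried a puromycin-selected lentiviral shRNA, either a non-silencing control (control KD) or one against Gstm1 (GSTM1 KD), so that infection and selection were common to all groups. Gstm1 encodes a glutathione S-transferase. Each kind of culture was left without stimulation (the basal level) or received TNF-α at 50 ng/ml for 6 h, giving 4 groups with 2 replicates each. The labels name an shRNA against Gstm1 without saying how many sequences were used. Brains of more than 1 pup were pooled in a flask. Microglia were removed from the cultures before use, so the cells that remained were enriched rather than pure astrocytes.

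Chemokines are small secreted proteins that draw leukocytes along a gradient, and the CC family is named for a pair of neighbouring cysteines. Ligands bind G protein-coupled receptors on the responding cell, and several ligands share a receptor. In the brain, astrocytes and microglia are known sources of CC ligands during inflammation, and many of the genes are transcribed in response to NF-κB, which TNF-α activates.

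The 10 genes lay at few places in the genome (GRCm38, gene models of GENCODE). Ccl2 (chr11:82035571-82037453), Ccl7 (chr11:82045712-82047525) and Ccl11 (chr11:82057823-82062955) were neighbours on the plus strand of chromosome 11, with gaps of 8258 and 10297 bases. Ccl3 (chr11:83647844-83649355, minus strand) and Ccl4 (chr11:83662584-83664683, plus strand) lay 13228 bases apart farther along the same chromosome, and Ccl5 (chr11:83525778-83530518, minus strand) was 117325 bases from Ccl3. Ccl17 (chr8:94810453-94812036) and Ccl25 (chr8:4325210-4360020) were on the plus strand of chromosome 8, Ccl20 (chr1:83116766-83119167) was on the plus strand of chromosome 1, and Ccl19 (chr4:42754525-42756577) was on the minus strand of chromosome 4. All 10 are annotated as protein coding. Exons of Ccl25 overlapped exons of Elavl1 on the other strand, and 39.3% of the 100-base words of Ccl19 transcripts also occurred in copies such as Ccl19-ps1, so reads of these genes could be assigned to either. Of the other members, none shared a word of that length with another gene.

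RefSeq promoter sequences (GRCm38.p6, 250 bases before and 50 bases after an annotated start) were matched by symbol for 5 of the 10 members: Ccl3, Ccl17, Ccl19, Ccl20 and Ccl25. Those of Ccl20, Ccl17 and Ccl25 are shown because these 3 of the 5 genes had enough counts for a test of their response to TNF-α. All 3 are on the plus strand and read from 5′ to 3′, and capitals mark the match to the NF-κB motif. Ccl20 is chr1:83116516-83116815, Ccl17 is chr8:94810203-94810502, and the Ccl25 window is that of the second of its annotated starts, chr8:4349338-4349637.
Ccl20: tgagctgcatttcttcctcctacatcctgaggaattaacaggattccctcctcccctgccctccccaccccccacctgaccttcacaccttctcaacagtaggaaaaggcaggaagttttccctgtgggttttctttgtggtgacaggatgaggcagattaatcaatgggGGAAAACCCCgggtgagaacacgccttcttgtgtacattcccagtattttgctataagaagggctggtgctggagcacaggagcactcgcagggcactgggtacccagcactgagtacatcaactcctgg
Ccl17: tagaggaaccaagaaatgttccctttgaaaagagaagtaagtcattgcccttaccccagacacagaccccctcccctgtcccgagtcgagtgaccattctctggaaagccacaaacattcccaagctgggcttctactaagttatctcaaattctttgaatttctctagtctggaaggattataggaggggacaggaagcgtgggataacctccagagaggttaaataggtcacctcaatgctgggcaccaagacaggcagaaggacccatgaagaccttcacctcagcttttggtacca
Ccl25: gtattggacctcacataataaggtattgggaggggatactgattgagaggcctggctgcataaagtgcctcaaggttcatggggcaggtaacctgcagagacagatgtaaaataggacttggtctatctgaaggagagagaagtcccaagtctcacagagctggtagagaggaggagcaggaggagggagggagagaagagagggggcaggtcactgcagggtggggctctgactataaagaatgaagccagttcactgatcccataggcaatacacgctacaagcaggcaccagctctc

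The windows were searched on both strands for 4 motifs, NF-κB (by name), AP-1 (TGANTCA), the TATA box (TATAAA) and C/EBP (TTNNGNAA). Among all 32851 promoter windows of this length, 8.46% held the NF-κB motif, 7.81% AP-1, 13.6% the TATA box and 40.7% C/EBP. The Ccl20 window held an NF-κB match on the minus strand, at positions -80 to -71 from the start. The Ccl25 window above held TATAAA at -16 to -11, and the Ccl3 window held a C/EBP match at -100 to -93. These letters were not found in the windows of Ccl17 and Ccl19 or in that of the first Ccl25 start. No matches overlapped. A match describes the letters only.

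The libraries held 17349682 to 34434615 assigned reads, and TMM factors were between 0.958 and 1.03. Gstm1 was lower in GSTM1 KD than in control KD at the basal level (log2 fold change -3.33, SE 0.26, adjusted p = 0.0132, edgeR) and after TNF-α (-3.68, SE 0.31, adjusted p = 0.00981). All 12 astrocyte markers had over 3 counts in every library. T cell markers were at or near 0 (summed TPM at most 0.06). Of 18 microglial and macrophage markers, 7 to 17 had over 3 counts in a library, and their summed TPM was 54.5 to 78.1. Replicate 1 of control KD stood apart from the other libraries in both states. Its summed astrocyte marker level was the lowest, 1898 TPM without stimulation and 1856 with TNF-α against 4050 to 6438 in the other 6 libraries. Its summed microglial marker level was the highest of each state, 78.1 TPM without stimulation and 72.5 TPM with TNF-α, against 59.8 to 69.7 and 54.5 to 68.3 TPM. The calls of the members are therefore also given without it. With 2 libraries in a group an exact permutation test of a single gene cannot go below p = 0.333 (two-sided), and p-values below come from edgeR fits over all genes. In such bulk samples fewer cells of a type and less RNA per cell cannot be told apart.

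Levels of the members were read as TPM, which is per transcript length and so can be compared between genes. In control KD astrocytes at the basal level, Ccl2, which draws monocytes through Ccr2, was the most abundant member at 65.6 and 33.5 TPM. Ccl7, another Ccr2 ligand, followed at 32.1 and 15.6 TPM, a range that overlapped that of Ccl25 (15.7 and 12.6 TPM). Ccl5, which draws T cells and monocytes, was at 4.07 and 2.72 TPM, and Ccl17, a Ccr4 ligand, was at 4.15 and 2.41 TPM, so that the neighbours Ccl5 and Ccl17 did not differ beyond their spread. Ccl20, the chemokine ligand of Ccr6, was near the limit of detection with 3 and 1 counts (0.25 and 0.13 TPM). Ccl3 and Ccl4, macrophage inflammatory proteins, had at most 2 counts. Ccl11, an eosinophil attractant, and Ccl19, which acts through Ccr7 in lymphoid tissue, were at 0 counts in all 8 libraries. A count of 0 allows up to 3 counts, or 0.0848 to 0.180 CPM depending on the library, as far as counting error goes.

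The order changed with GSTM1 KD and with TNF-α. In GSTM1 KD astrocytes at the basal level Ccl25, known for its role in the thymus and small intestine through Ccr9, came first at 19.0 and 16.8 TPM. Ccl2 was next at 5.92 and 4.06 TPM, ahead of Ccl7 (3.76 and 2.07 TPM) and Ccl17 (2.41 and 1.96 TPM), whose ranges overlapped, and Ccl5 was lower at 1.77 and 0.92 TPM. Ccl20 and Ccl4 had no counts in either of these libraries, and Ccl3 had 1 and 0.

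**Figure D1:**
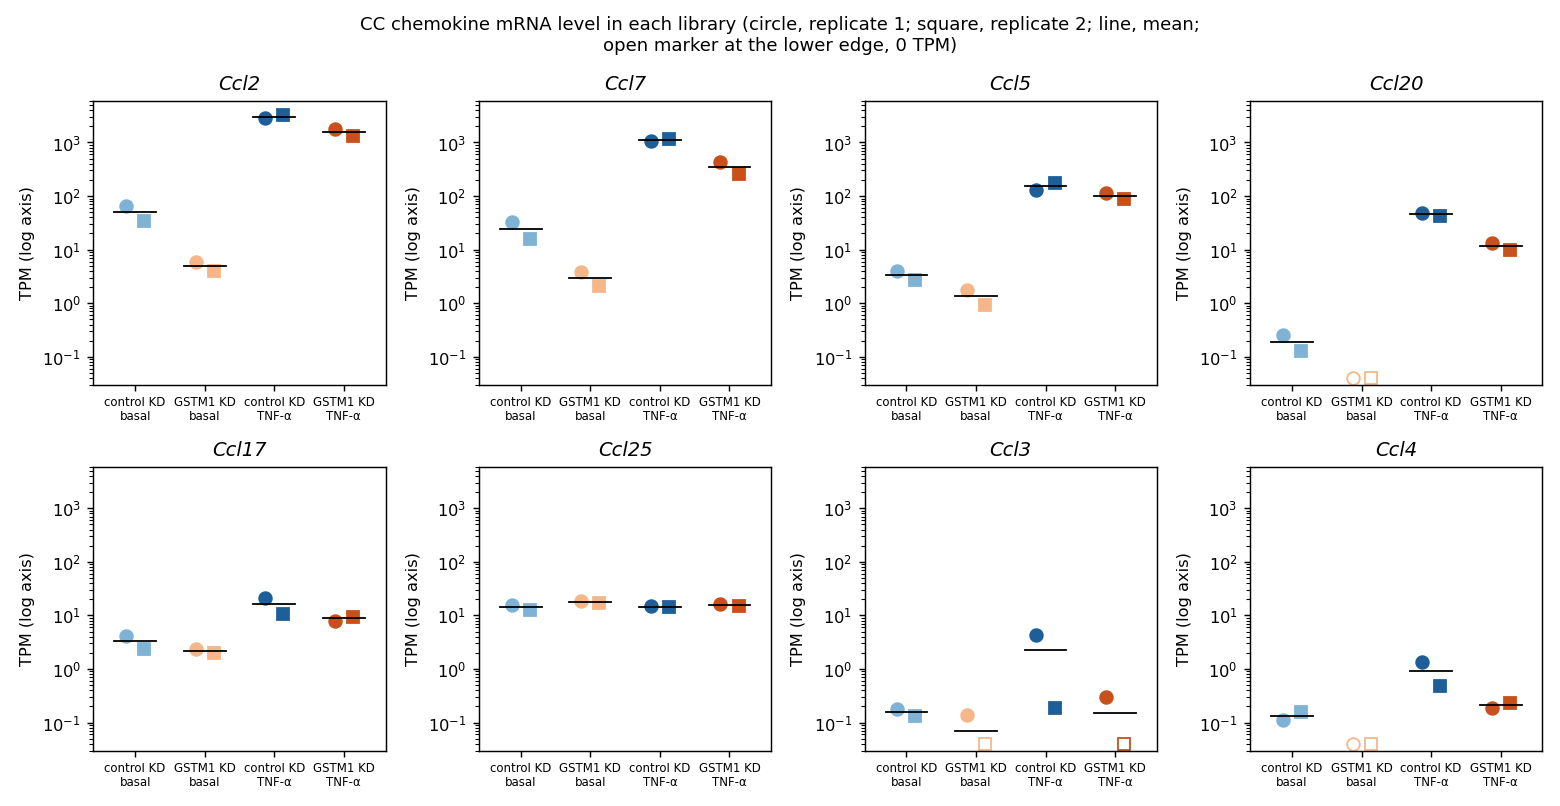
Level of 8 members in each library, in TPM on a log axis, by group on the horizontal axis; circles are replicate 1, squares replicate 2, lines the mean of 2 libraries, and open markers at the lower edge stand for 0 TPM. Ccl2, Ccl7, Ccl5 and Ccl20 are far higher in all 4 TNF-α libraries than in the basal ones, whereas Ccl25 stays between 12.6 and 19.0 TPM.

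After TNF-α the order in control KD was Ccl2, Ccl7, Ccl5 and Ccl20, with no overlap between neighbours. Ccl2 reached 2869 and 3211 TPM and ranked 23 and 18 among all genes, against 2834 and 5142 at the basal level. Ccl7 reached 1062 and 1145 TPM, Ccl5 127.5 and 175.7 TPM, and Ccl20 48.0 and 42.5 TPM. Ccl17, at 21.3 and 10.7 TPM, overlapped Ccl25 at 14.9 and 14.2 TPM. In GSTM1 KD the first 3 places were the same, with Ccl2 at 1757 and 1339.85 TPM (ranks 51 and 67), Ccl7 at 434.8 and 254.8 TPM and Ccl5 at 114.8 and 86.9 TPM. Ccl25 (16.1 and 14.8 TPM) then stood above Ccl20 (13.3 and 9.64 TPM) and Ccl17 (8.03 and 9.51 TPM). The order of all 10 members in each group was the same by CPM per kilobase of effective length.

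The make-up of the CC chemokine mRNA followed from these levels. Without stimulation the 10 members summed to 122.2 and 67.2 TPM (control KD) against 33.0 and 25.8 TPM (GSTM1 KD). With TNF-α the sums were 4148 and 4599.65 TPM against 2345 and 1716 TPM. Ccl25 made up 57.5% and 65.1% of the sum in the basal GSTM1 KD libraries, 12.9% and 18.8% in the basal control KD libraries and under 1% in each TNF-α library. Ccl2 made up 18.0% and 15.7% in basal GSTM1 KD, 53.7% and 49.8% in basal control KD and 69.2% to 78.1% after TNF-α. The level of Ccl7 was 37.0% and 35.7% of that of Ccl2 in control KD after TNF-α but 24.7% and 19.0% in GSTM1 KD, with no overlap. At the basal level it was 49.0% and 46.5% against 63.5% and 51.0%, the other way round and also with no overlap. The basal GSTM1 KD ratios came from few counts, 28 and 13 of Ccl7 and 45 and 26 of Ccl2. These ratios are descriptions without a test.

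**Figure D2:**
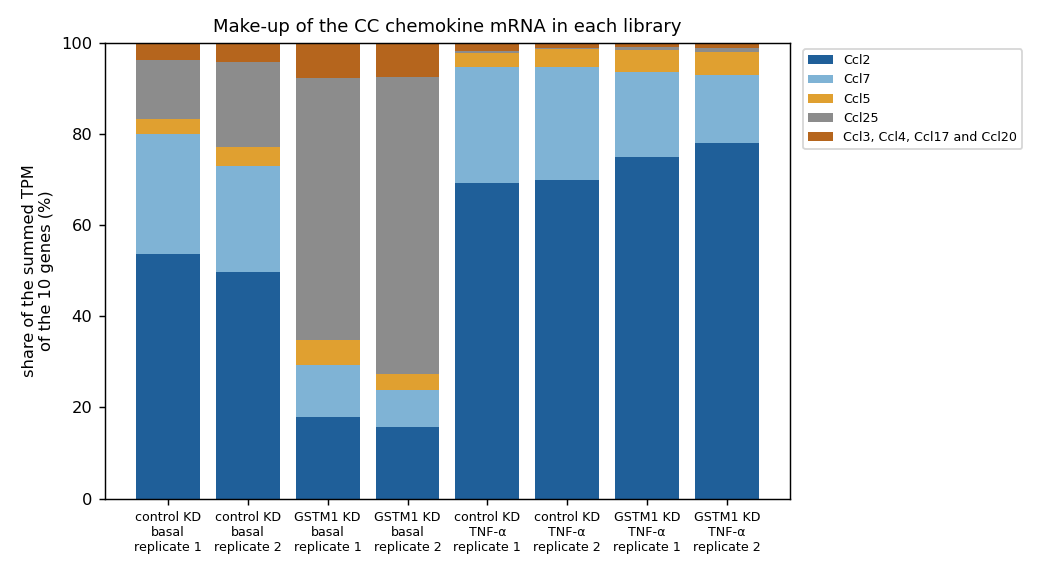
Share of each member in the summed TPM of the 10 genes (vertical axis, %), as stacked bars for each of the 8 libraries. Ccl25 takes 57.5% and 65.1% in the basal GSTM1 KD libraries, and Ccl2 takes 69.2% to 78.1% in the TNF-α libraries.

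To ask which members TNF-α induced, each kind of culture was compared with its own basal level in an edgeR fit over all 8 libraries. In control KD, 4 of the 6 members that passed the filter on low counts rose (Ccl2, Ccl7, Ccl5 and Ccl20), against 2.10% of all genes tested that were higher. The same 4 members rose in GSTM1 KD, where 2.35% of all genes tested were higher. None fell. Ccl20 and Ccl17 passed the filter only through their stimulated libraries, so their place among the members tested depended on the groups in which they were high. The other members that passed the filter were Ccl17 and Ccl25, and Ccl3, Ccl4, Ccl11 and Ccl19 did not pass it.

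Ccl2 went from 800 and 288 counts to 22743 and 18263 in control KD, and from 45 and 26 to 12746 and 7765 in GSTM1 KD. All 4 stimulated libraries were above all 4 basal ones. The change was 61.0-fold in control KD (log2 fold change 5.93, SE 0.37, adjusted p = 0.000589, edgeR) and 316-fold in GSTM1 KD (8.30, SE 0.44, adjusted p = 0.000286). Ccl7 went from 384 and 131 counts to 8235 and 6365 in control KD and from 28 and 13 to 3083 and 1442 in GSTM1 KD, again without overlap. Its change was 45.5-fold (5.51, SE 0.43, adjusted p = 0.00158) and 119-fold (6.89, SE 0.52, adjusted p = 0.00118), respectively. Ccl5 went from 26 and 12 counts to 524 and 507 in control KD and from 7 and 3 to 428 and 264 in GSTM1 KD. It rose 42.7-fold (5.41, SE 0.32, adjusted p = 0.000459) and 74.2-fold (6.21, SE 0.37, adjusted p = 0.000578). From 7 and 3 basal counts the latter was imprecise, with 6.82 without basal replicate 1 of GSTM1 KD.

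Ccl20 was the member whose induction started from the lowest level. It went from 3 and 1 counts to 369 and 235 in control KD and from 0 and 0 to 93 and 55 in GSTM1 KD, and it passed the edgeR test in both (adjusted p = 0.000589 and 0.00165). Set against 4 counts in all, the rise in control KD was 231-fold with a counting interval from 89.8 to 851 (95%). In GSTM1 KD it was at least 26.7-fold, with a floor of 3 counts in each basal library. The 2 responses of Ccl20 could not be compared as folds, since the basal level was at or under that floor in control KD as well as in GSTM1 KD. The calls of all 4 members held with each library left out in turn, and also without replicate 1 of control KD in both states, where Ccl2 rose by 6.61, Ccl7 by 6.22 and Ccl5 by 6.01 on the log2 scale in control KD.

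Ccl17 went from 25 and 10 counts to 82 and 29 in control KD, and from 9 and 6 to 28 and 27 in GSTM1 KD. Every stimulated library was above every basal one, but the edgeR test was not passed (2.24, SE 0.46, adjusted p = 0.0547 in control KD; 2.02, SE 0.52, adjusted p = 0.128 in GSTM1 KD). DESeq2 called the difference in control KD (adjusted p = 0.00894). So did edgeR with the replicate number as a block (2.23, adjusted p = 0.0181). With no filter on low counts, edgeR called Ccl17 in both kinds of culture. Without replicate 1 of stimulated control KD, the control KD value was 1.63. Ccl25 had 232 and 123 counts against 131 and 79 in control KD and 162 and 112 against 132 and 87 in GSTM1 KD, from libraries of unequal depth. In CPM the groups overlapped, and the log2 fold changes were -0.13 (SE 0.24, adjusted p = 0.963) and -0.18 (SE 0.24, adjusted p = 0.997). In TPM the stimulated GSTM1 KD libraries (16.1 and 14.8) were below the basal ones (19.0 and 16.8). Of 6 pericyte markers, of which 2 or 3 had over 3 counts in a library, Pdgfrb was lower after TNF-α, at 16.8 and 25.8 against 7.43 and 9.82 TPM in control KD and 30.4 and 30.6 against 14.95 and 16.8 TPM in GSTM1 KD. It made up most of the list's summed level. Rgs5 was not lower (0.19 and 0.44 against 0.27 and 0.60 TPM in control KD), so the list did not move as a whole. Of the astrocyte markers, Fgfr3 was lower after TNF-α (50.8 and 82.6 against 27.1 and 40.6 TPM in control KD). So was Sox9 (116 and 181 against 73.0 and 99.2 TPM), whereas Slc1a2 was higher (29.5 and 38.7 against 42.1 and 59.2 TPM). In GSTM1 KD these markers moved in the same directions, each without overlap. The summed astrocyte level overlapped in both kinds of culture. The part of Pdgfrb-expressing cells or of astrocytes in the inductions was not tested.

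**Figure D3:**
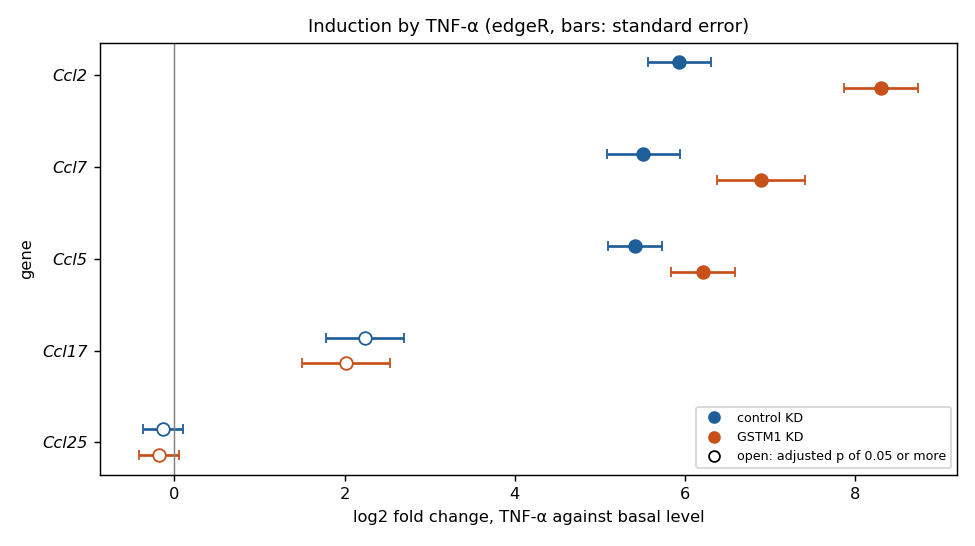
Log2 fold change after TNF-α against the basal level (horizontal axis) for the members whose counts allow a fold in both kinds of culture, with control KD in blue and GSTM1 KD in orange; bars are standard errors of the edgeR fit, and open markers have an adjusted p of 0.05 or more. Ccl2 is at 5.93 and 8.30, respectively, and Ccl25 is near 0 in both.

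To ask whether GSTM1 KD changed the response itself, the difference of the 2 log2 fold changes was tested in the same fit. It was 2.37 for Ccl2 (SE 0.50), 1.38 for Ccl7 (SE 0.65) and 0.80 for Ccl5 (SE 0.55), each in the direction of a larger fold in GSTM1 KD. For Ccl17 it was -0.22 (SE 0.72) and for Ccl25 -0.05 (SE 0.34). No member and 0% of the 15332 genes tested passed edgeR at an adjusted p of 0.05, with 295 genes, of which 1 was a member (Ccl2), at an unadjusted p under 0.05. DESeq2 called 27 genes, Ccl2 among them (2.36, adjusted p = 0.000426). Without replicate 1 of control KD in both states the difference was 1.69 for Ccl2, 0.67 for Ccl7 and 0.20 for Ccl5. Without basal replicate 1 of GSTM1 KD that of Ccl5 was 1.40. The larger fold and the lower basal level are not separate observations, since the response is read against the same basal libraries, in which Ccl2 was lower in GSTM1 KD by more (-3.38) than after TNF-α (-1.03).

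At the basal level, GSTM1 KD was compared with control KD in an edgeR fit of these 4 libraries. Of the 4 members that passed the filter, 2 were lower in GSTM1 KD, Ccl2 and Ccl7, and none was higher, while 5.62% of all genes tested were lower. Ccl2 was at 65.6 and 33.5 TPM in control KD and at 5.92 and 4.06 TPM in GSTM1 KD, without overlap, a 10.4-fold difference (log2 fold change -3.38, SE 0.43, adjusted p = 0.0194). Ccl7, at 32.1 and 15.6 against 3.76 and 2.07 TPM, was 8.53-fold lower (-3.09, SE 0.50, adjusted p = 0.0270). Without replicate 1 of control KD the values were -2.79 and -2.45. Without replicate 1 of GSTM1 KD, Ccl2 was at -3.70 and Ccl7 at -3.61, and without replicate 2 they were at -3.14 and -2.74. Both calls stood without replicate 1 of control KD and were lost without either GSTM1 KD library. With 1 library left in a group, the spread came from the other group alone. Calls over all genes moved with it, so these fits cannot show how firm the calls of Ccl2 and Ccl7 are. Ccl5, with 26 and 12 counts against 7 and 3, did not overlap but did not pass (-1.39, SE 0.55, adjusted p = 0.149; -1.02 without replicate 1 of control KD). Ccl25 differed little, at 0.14 (SE 0.26, adjusted p = 0.739), and the groups overlapped in CPM, although in TPM both GSTM1 KD libraries (19.0 and 16.8) were above both control KD libraries (15.7 and 12.6). Ccl17 and Ccl20 did not pass the filter in this comparison.

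After TNF-α, 3 of the 6 members that passed the filter were lower in GSTM1 KD (Ccl20, Ccl7 and Ccl2) and none was higher, beside 8.92% of all genes tested that were lower. Ccl20 was at 48.0 and 42.5 TPM in control KD and at 13.3 and 9.64 TPM in GSTM1 KD, 4.08-fold lower (-2.03, SE 0.23, adjusted p = 0.0119). Ccl7 was at 1062 and 1145 against 434.8 and 254.8 TPM, 3.33-fold lower (-1.73, SE 0.26, adjusted p = 0.0180). Ccl2 was at 2869 and 3211 against 1757 and 1339.85 TPM, 2.04-fold lower (-1.03, SE 0.17, adjusted p = 0.0216). In each of the 3 both GSTM1 KD libraries were below both control KD libraries. The calls stood without replicate 1 of control KD (Ccl20 -1.93, Ccl7 -1.78 and Ccl2 -1.11) and were lost without either GSTM1 KD library. Here too the spread came from the complete pair alone, so these fits cannot show how firm the 3 calls are. The Ccl2 call was also lost when all 8 libraries were fitted together (-1.01, adjusted p = 0.0549). Without replicate 1 of GSTM1 KD the values were -2.26 for Ccl20, -2.17 for Ccl7 and -1.23 for Ccl2. Without replicate 2 they were -1.83, -1.39 and -0.84.

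Ccl5 after TNF-α was at 127.5 and 175.7 TPM in control KD and at 114.8 and 86.9 TPM in GSTM1 KD. Its groups did not overlap, but the difference did not pass the edgeR test (-0.62, SE 0.21, adjusted p = 0.0973). With a library left out, its value ran from -0.82 (without replicate 1 of control KD) to -0.39 (without replicate 2 of control KD). Ccl17 was at 21.3 and 10.7 against 8.03 and 9.51 TPM and did not pass (-0.94, SE 0.44, adjusted p = 0.185). Its value moved to -0.32 without replicate 1 of control KD and to -1.34 without replicate 2. Ccl25 was at 0.07 (SE 0.24, adjusted p = 0.867), with overlapping groups.

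**Figure D4:**
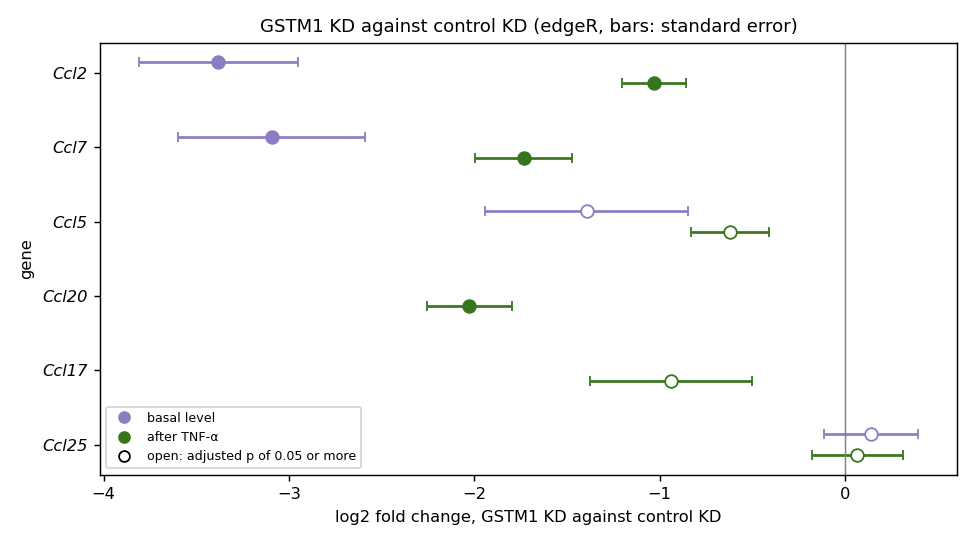
Log2 fold change in GSTM1 KD against control KD (horizontal axis) at the basal level (purple) and after TNF-α (green) for the members that passed the filter; bars are standard errors of the edgeR fits, and open markers have an adjusted p of 0.05 or more. Ccl2 and Ccl7 are lower in both states, at -3.38 and -3.09 without stimulation and -1.03 and -1.73 after it, and Ccl25 is near 0.

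Cell type markers differed between control KD and GSTM1 KD as well, in both directions within the astrocyte, microglial, endothelial, pericyte and fibroblast lists. By mean TPM, 8 of the 12 astrocyte markers were higher in GSTM1 KD in each state and 4 were lower. Among the higher ones were Gfap (706.5 and 2206 against 2333 and 4184 TPM at the basal level), Aldh1l1, Glul and Aldoc. S100b and Sox9 were among the lower ones. Of 7 endothelial markers, of which 4 or 5 had over 3 counts in a library and Cldn5 was at 0 in all, the summed TPM was 4.85 to 6.70 without stimulation in control KD against 2.30 to 2.32 in GSTM1 KD, and 5.72 to 6.11 against 2.59 to 2.70 after TNF-α. Cdh5 and Esam were lower in both states (Esam 3.49 and 2.52 against 0.49 and 0.44 TPM at the basal level), whereas Kdr was higher (0.18 and 0.37 against 0.54 and 0.93 TPM), each without overlap. Of the pericyte markers, Pdgfrb and Rgs5 were higher in GSTM1 KD in both states and Anpep was lower. Of 5 choroid plexus markers, of which 0 to 3 had over 3 counts, the summed TPM was 1.15 to 1.43 against 5.27 to 9.33 at the basal level and 0.40 to 2.54 against 5.22 to 6.87 after TNF-α. Most of this was Folr1 (1.10 and 0.88 against 3.86 and 8.61 TPM at the basal level), while Ttr had 0 to 9 counts and overlapped. The summed level of 7 fibroblast and meningeal markers, of which 5 or 6 had over 3 counts and Slc6a13 was at 0, overlapped in both states (139 to 199.96 against 146 to 182 TPM, and 123 to 183 against 137 to 172 TPM). Its members went opposite ways, with Col1a2 lower (41.0 and 53.2 against 18.1 and 26.3 TPM at the basal level), Foxc1 lower and Ogn higher (47.4 and 69.2 against 91.7 and 97.4 TPM), each without overlap in both states. By mean TPM, 14 of the 18 microglial markers were lower in GSTM1 KD at the basal level (7 without overlap) and 4 higher (2 without overlap), and after TNF-α 13 were lower (3 without overlap) and 5 higher (1 without overlap). Their summed level overlapped, at 62.8 to 78.1 against 59.8 to 69.7 TPM and 59.95 to 72.5 against 54.5 to 68.3 TPM. With 2 libraries against 2, a single gene without any difference separates with a probability of 0.333, so a lack of overlap is only a description. The part of any of these cell types in the levels of Ccl2, Ccl7 and Ccl20 was not tested.

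Ccl3 and Ccl4 did not pass the filter and were not tested in the main edgeR fits, and their values turned on a single library. With no filter on low counts, edgeR called Ccl3 higher in stimulated control KD than in basal control KD and than in stimulated GSTM1 KD. Ccl3 had 32 counts in replicate 1 of control KD after TNF-α and 1 count in replicate 2, with 2 and 0 in GSTM1 KD and 0 to 2 in the basal libraries. Ccl4 had 8 and 2 counts in control KD after TNF-α, 1 and 1 in GSTM1 KD, and at most 1 in each basal library. Counted over the group, Ccl3 was 16.2-fold higher in control KD than in GSTM1 KD after TNF-α (33 against 2 counts, counting interval 4.14 to 139). Ccl4 was 4.90-fold higher (10 against 2 counts, 1.04 to 46.0). Without replicate 1 of control KD, 1 count of Ccl3 and 2 counts of Ccl4 remained in that group, so neither difference stood. That library also had the highest summed level of the 18 microglial markers after TNF-α (72.5 TPM), and the unstimulated library of the same replicate had more (78.1 TPM) with 2 counts of Ccl3 and 1 of Ccl4. Most microglial markers were lower in stimulated GSTM1 KD than in stimulated control KD (13 of 18 by mean TPM). Itgam had 35 and 6 counts in control KD against 8 and 1, and Trem2 29 and 3 against 4 and 1, while Tmem119, among the 5 that were higher, had 4 and 9 against 9 and 12. The part of microglial RNA in the Ccl3 and Ccl4 counts was not tested.

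**Figure D5:**
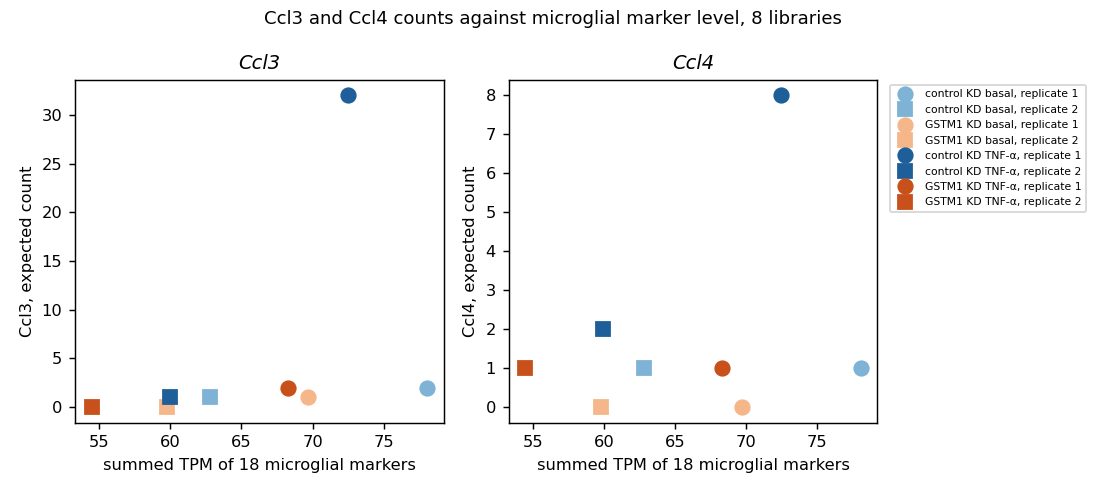
Expected counts of Ccl3 and Ccl4 (vertical axes) against the summed TPM of 18 microglial markers (horizontal axes), 1 point per library. Replicate 1 of control KD after TNF-α has 32 counts of Ccl3 and 8 of Ccl4 at 72.5 TPM, and the basal library of the same replicate has 2 and 1 at 78.1 TPM.

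Of 14 further CC ligand genes, counted by identifier, Ccl9, Ccl27a and Ccl28 passed the filter in at least 1 comparison, and each of the rest had at most 2 counts in any library. Ccl9, a myeloid-attracting ligand, went from 4 and 1 counts to 74 and 36 with TNF-α in control KD, and from 2 and 0 to 23 and 24 in GSTM1 KD. It rose in control KD (4.96, SE 0.62, adjusted p = 0.00950, edgeR) and in GSTM1 KD (47 against 2 counts, 26.0-fold, counting interval 6.82 to 221, adjusted p = 0.0270), but in neither when effective lengths were taken into account. Like Ccl20, it passed the filter only through its stimulated libraries. The control KD call was lost without basal replicate 2 of control KD or without its replicate 1 in both states, and the GSTM1 KD call when any of the 4 GSTM1 KD libraries was left out. Ccl27a had 143 and 99.2 counts in unstimulated control KD libraries against 186 and 152 in those of GSTM1 KD, where it was higher (0.98, SE 0.20, adjusted p = 0.0424). The call was lost with effective lengths. It was also lost without either GSTM1 KD library, where the spread came from control KD alone. Exons of Ccl27a overlap those of Il11ra1 on the other strand, so its reads are uncertain. Ccl28 was between -0.01 and 0.14 on the log2 scale in the 4 comparisons of groups and passed none.

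The receptors of these ligands were at few counts. Of 14 receptor genes, Ackr1 passed the filter in each comparison and Ccrl2 in all but the basal one, and the signalling receptors did not pass it. Ccrl2, an atypical receptor that does not signal by itself, had 6 and 5 against 18 and 26 counts in control KD (2.63, SE 0.55, adjusted p = 0.0586) and 5 and 4 against 54 and 24 counts in GSTM1 KD, where it rose (3.20, SE 0.55, adjusted p = 0.0286, edgeR). It too passed the filter only through stimulated libraries. The call was lost with effective lengths, without either basal GSTM1 KD library and without replicate 1 of stimulated GSTM1 KD. Ackr1, a scavenging receptor for many chemokines, had 5 and 8 counts in unstimulated control KD libraries against 11 and 17 in those of GSTM1 KD (1.56, SE 0.59, adjusted p = 0.141), and was called with the replicate number as a block. Ccr10, the receptor of Ccl27a and Ccl28, had 0 to 14 counts in a library. Ackr4, which takes up Ccl19 and Ccl25, had at most 6 counts. Ccr1, which binds Ccl3 and Ccl5, had at most 11 counts.

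The genes most like the 4 induced members were found by Pearson's correlation of log2 CPM over the 8 libraries among 15332 genes. The 8 points are the same libraries for every gene and form a basal and a stimulated set, so the correlation is only a description. For Ccl2 these were Stx11 (0.998), Ifngr2 (0.995), a subunit of the interferon-γ receptor, and Birc3 (0.994), an inhibitor of apoptosis. For Ccl7 they were Birc3 (0.998), Bid (0.997) and Cxcl16 (0.995). For Ccl5 they were Tlr2 (0.995), Relb (0.994), an NF-κB subunit, and Acod1 (0.992), the enzyme that makes itaconate. For Ccl20 they were Tnip1 (0.997), Cd83 (0.996) and Il23a (0.995). Among the members, Ccl2 and Ccl7 were at 0.995 and Ccl2 and Ccl25 at -0.41.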

How the data were processed

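RNA-seq of cultured astrocytes was measured in 8 libraries (4 groups, 2 replicates each), grouped by the GEO labels. The paper calls them biological replicates; where they are not separate cultures, p-values measure technical spread only. According to the study's methods and the submitters' processing notes, paired reads from a directional kit were mapped to GRCm38 (mm10) with STAR 2.5.4b and quantified with RSEM 1.3.0; the strand setting is not given in the sources used here. The deposited tables hold, per gene and library, the expected count, which the authors estimated with RSEM and did not normalise, and TPM, which the authors scaled to transcript length and depth. They also hold effective lengths, used in an alternative. Reads carry no molecular identifiers, so counting intervals and floors cover counting error only.

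Expected counts were rounded and tested with the quasi-likelihood test of edgeR 4.0.16 in R 4.3.3, with TMM factors, the filterByExpr filter, and Benjamini-Hochberg adjustment over all genes tested at 0.05. GSTM1 KD and control KD were compared in the 4 libraries of a state, and responses and their difference in all 8 (14899, 14593 and 15332 genes tested). TPM was described without a test. Every member was named, with other CC ligands and receptors past the filter or over 3 counts in both libraries of a group, and the 3 genes most like each induced member. Members, lists and markers were chosen with earlier results of these data known, and some listed genes are not reported here. Scripts were tested on simulated data. Alternatives were DESeq2 1.42.0, other size factors, no filter, a replicate block, effective length offsets, other sets of libraries and each library left out. Replicates of a group differed by more than sampling noise (chi-square per degree of freedom 13.8 to 55.4).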

Additional observations from a re-analysis of the deposited data

How the results depend on the processing

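With 2 libraries in a group, leaving 1 out gave 0 to 2 members past the threshold at the basal level, 0 to 5 after TNF-α, 4 to 4 in each TNF-α response and 0 for the difference of responses. Over all genes these counts ran from 1 to 5256, 0 to 5028, 180 to 313 (control KD), 74 to 444 (GSTM1 KD) and 0 to 2, and over the other CC genes from 0 to 1, 0 to 1, 0 to 1, 0 to 2 and 0. A lone library is assumed to vary like the other groups. In the comparisons of GSTM1 KD with control KD only 1 other group was left to give the spread. Those counts therefore cannot show how firm a call is. Without control KD replicate 1 in both states, an alternative chosen after seeing the data, 683 genes passed in the GSTM1 KD response and 0 other CC genes in the control KD response. With only the 4 libraries of that knockdown, 72 and 691 genes passed in control KD and GSTM1 KD, and 0 other CC genes in control KD.

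For the members, no filter on low counts gave 5 after TNF-α (adding Ccl3 and Ccl5) where 3 passed, and 2 for the difference (Ccl2 and Ccl7), where DESeq2 gave 1. Over all genes, 1524 passed at the basal level, against 2494 with DESeq2, 3957 with no filter, 4712 with the replicate block and 2762 with all 8 libraries. After TNF-α 2360 passed, against 4540 with no filter and 4302 with the block. In control KD 403 genes passed, against 738 with DESeq2, 1255 with no filter and 988 with the block, and in GSTM1 KD 406, against 629, 1050 and 808. For the difference 0 passed, against 27 with DESeq2 and 134 with no filter. Of the other CC genes, 1 passed at the basal level, against 2 with the block (adding Ackr1) and 0 with effective length offsets. After TNF-α 0 passed, against 2 with no filter, 1 with length offsets and 1 with all 8 libraries. In control KD 1 passed, against 2 with DESeq2, no filter or the block and 0 with length offsets, and in GSTM1 KD 2, against 0 with length offsets. The cause was not tested.

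The replicate numbers of different groups deviated together (r 0.165 to 0.575), but 2 pairs do not show that a number marks a shared culture. With the block, Ccl17 passed in control KD (2.23, adjusted p = 0.0181) and no other member changed its call. Of 392 member values under alternatives 357 kept their direction and side of the threshold, 11 lost the call, 11 gained it and 13 turned sign. None of the 13 was called. For Ccl25 with a library left out, the knockdown comparison ran from -0.070 to 0.385 without stimulation and from -0.074 to 0.208 with it, the control KD response from -0.321 to 0.117 (0.060 with length offsets), and the difference from -0.295 to 0.142, where Ccl17 ran from -0.737 to 0.395.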
